A study of Mus musculus with 4 samples.

Results

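T-box factors are transcription factors that bind DNA through a shared domain, the T-box, and pattern many embryonic organs. The genes described here are Tbx1, Tbx2, Tbx3, Tbx4, Tbx5, Tbx15, Tbx18 and Tbx20. They were chosen by gene symbol among the gene probes of the arrays, every probe of a gene was kept separate, and the 4 spots of each probe were averaged. The 8 genes had 10 probes among the 39429 gene probes of the array, 1 probe each and 3 for Tbx20. The study asked how loss of Tbx2 in prosensory progenitors changes transcription in the mouse cochlear duct before hair cells and supporting cells differentiate.

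RNA of whole cochlear ducts at E14.5 was compared on 4 dual-colour Agilent arrays, each carrying 1 mutant and 1 control pool. The mutant pools, called Sox2-Tbx2LOF, were labelled Sox2(creERT2);Tbx2(fl/fl), and the control pools were labelled Tbx2(fl/n.d.), with 1 floxed allele and the other written as n.d.. Both genotypes were on the NMRI background, and tamoxifen, which activates the CreERT2 recombinase, was given to the dams once at E12.5 as 4 mg. The methods name cre-negative embryos as controls, so controls also had tamoxifen but no Cre. The breeding scheme gives mutants and their cre-negative littermates alike 1 copy of the R26 mTmG reporter. CreERT2 was driven from the Sox2 locus, therefore only cells that use Sox2 could lose Tbx2, and the pools also held the other cells of the duct. Mutants were heterozygous for this Sox2 allele and cre-negative controls lacked it. Effects of the allele and of Tbx2 loss therefore cannot be told apart in these arrays. Arrays 1 and 2 carried female pools and arrays 3 and 4 male pools. The mutant carried Cy5 on array 1 of the female pair and array 3 of the male pair, and the dyes were swapped on the other array of each pair. In pooled tissue, fewer cells of a type and less RNA per cell cannot be told apart.

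Tbx2 and Tbx3 are close relatives that act mainly as repressors of transcription. Tbx4 and Tbx5 belong to the same subfamily and are known for their roles in hindlimb and lung, and in forelimb and heart. Tbx1, Tbx15, Tbx18 and Tbx20 form another branch. Tbx1 is needed in the otic vesicle and in the mesenchyme around it, Tbx18 marks the mesenchyme that forms otic fibrocytes, Tbx15 is known from limb and skin mesenchyme, and Tbx20 from the heart.

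Each gene was read by a probe of 60 bases. Stretches of 30 bases are shown for 3 probes with strong signals in every pool and for the Tbx5 probe, since the readings below rest on these sequences. Capitals mark AATAAA, the hexamer of many polyadenylation signals. It was searched on the probe strand, which reads like the transcript, and on no other strand.
Tbx2: aagcgagaaaatAATAAAaacgctatcatg
Tbx3: gattggtgtactgagagggacttggttcaa
Tbx18: tctgaggtatctatagcAATAAAggcttag
Tbx5: tcatgtgagatgtctacgaacgtcgcaggg
The Tbx2 stretch spans bases 23 to 52 of the probe and the Tbx18 stretch bases 31 to 60. The other 2 span bases 16 to 45. The hexamer was found in 2 of the 10 probes and in 12.6% of all gene probes. The longest run that any 2 of the 10 probes shared, on either strand, was 8 bases, so no pair of these genes was read by near-identical probe sequence. GC content of the 10 probes lay between 35% and 50%.

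On the mm9 build named in the array files, the Tbx2 probe lies at chr11:85655391-85655450 on the plus strand and the Tbx4 probe starts 74.1 kb further along the same chromosome. The Tbx3 probe lies at chr5:120134511-120134570 on the plus strand and the Tbx5 probe starts 199.6 kb further. The Tbx18 probe lies at chr9:87599514-87599573 on the minus strand, and the Tbx15 probe at chr3:99157901-99157960 on the plus strand. The 3 Tbx20 probes lie on the minus strand of chromosome 9, at chr9:24527750-24527809, chr9:24544715-24544774 and chr9:24563177-24563236. All 10 probes cite a transcript that RefSeq assigns to the same gene. Whether a probe lies in coding sequence was not determined here, since no annotation of this build was used. The position of the floxed part of Tbx2 relative to its probe is not given in the sources used here, so the Tbx2 probe does not check the deletion. The paper checked it by immunofluorescence at E14.5. It reports that TBX2 protein was gone from recombined cells in the organ of Corti and the neighbouring greater epithelial ridge.

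Each array held 157716 gene spots, of which 8.29% to 8.56% were flagged as outliers and left out, and none was saturated. Testing was limited to the 27963 probes that exceeded background clearly in 4 or more of the 8 channel measurements. The sex labels matched the arrays: both Xist probes were well above background in 4 of 4 female pools and 0 of 4 male pools, and Ddx3y, Eif2s3y and Uty the other way around. Of 4 Esr1 probes, 1 was well above background in 4 of 4 mutant and 0 of 4 control pools (at least 4.24-fold higher in mutants), the other 3 in no pool. CreERT2 carries part of an oestrogen receptor. Sox2, the driver locus, gave a log2 ratio of 0.01 (SE 0.06, adjusted p 0.939). Whether its probe also reads transcripts of the CreERT2 allele was not determined.

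In the mutant pools, none of the 6 T-box genes that could be tested differed from control after adjustment. Tbx2 itself was lower on 4 of 4 arrays and Tbx1 higher on 4 of 4 arrays, by 7.76% and 7.28% on average, and neither passed. Tbx3, Tbx4, Tbx15 and Tbx18 were higher on some arrays and lower on others. Tbx5 was dim, and Tbx20 was not above background in any pool.

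Tbx2 was well above background in all 8 pools. Its normalized log2 signals were 14.12, 14.24, 14.03 and 14.19 in the mutant pools of arrays 1 to 4 and 14.37, 14.29, 14.16 and 14.22 in the control pools. The mutant pool was the lower one on every array, but the genotypes overlapped across arrays. The log2 ratios of mutant over control were −0.25, −0.05, −0.13 and −0.03, a mean of −0.12 ± 0.10 (SD, n = 4). With limma the estimate had an SE of 0.04, a 95% interval of −0.20 to −0.03, an unadjusted p of 0.0150 and an adjusted p of 0.145. On a linear scale the interval runs from −13.1% to −2.0%. Both larger differences were on the arrays with the mutant in Cy5.

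Tbx3 acts beside Tbx2 in several organs. Its log2 signals were 14.52, 14.69, 14.46 and 14.65 in the mutant pools and 14.51, 14.60, 14.51 and 14.29 in the control pools. The control pool of array 4 was the lowest of the 8, and the genotypes overlapped. The log2 ratios were 0.01, 0.09, −0.05 and 0.35 (mean 0.10 ± 0.18, SD, n = 4), with an adjusted p of 0.317 and a 95% interval of −0.01 to 0.21. Without array 4 the estimate was 0.03.

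Tbx1 was the only T-box probe whose genotypes did not overlap. Its log2 signals were 15.38, 15.34, 15.32 and 15.40 in the mutant pools and 15.29, 15.28, 15.22 and 15.24 in the control pools. Over all tested probes, 4.08% had genotypes that did not overlap. The log2 ratios of Tbx1 were 0.09, 0.07, 0.10 and 0.16, a mean of 0.10 ± 0.04 (SD, n = 4). The limma estimate had a 95% interval of 0.02 to 0.19, an unadjusted p of 0.0241 and an adjusted p of 0.185. The interval runs from 1.21% to 13.7% higher. When the channels were fitted separately with the array as a random block, the same estimate had an adjusted p of 0.0432, and in no other setting did a T-box probe pass.

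Tbx18 had log2 signals of 14.06, 13.47, 13.80 and 13.51 in the mutant pools and 13.75, 13.62, 13.68 and 13.62 in the control pools. The ratio followed the dye: it was 0.31 and 0.11 on the arrays with the mutant in Cy5 and −0.15 and −0.11 on those with the mutant in Cy3. The dye term of the fit was 0.17 for Cy5 over Cy3 (adjusted p 0.0463), and 9.95% of all tested probes passed for this term. With the dye accounted for, the mutant differed from control by 0.04 on the log2 scale (SE 0.04, 95% interval −0.06 to 0.14, adjusted p 0.678). Its 4 single ratios had the largest SD of the 6 tested probes, 0.22.

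Tbx4 and Tbx15 were dim but well above background in all 8 pools. Tbx4 log2 signals lay between 7.77 and 8.07, and its log2 ratios were 0.10, 0.06, −0.08 and 0.04 (mean 0.03 ± 0.08, SD, n = 4; adjusted p 0.744). Its 95% interval was −0.06 to 0.13. Tbx15 log2 signals lay between 7.06 and 7.43, and its log2 ratios were 0.10, 0.10, −0.23 and 0.07 (mean 0.01 ± 0.16, SD, n = 4; adjusted p 0.954). Its 95% interval was −0.12 to 0.14. Array 3 stood apart from the other 3 for Tbx15. Up to 2 of the 4 Tbx15 spots of an array were flagged as outliers and left out.

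**Figure D1:**
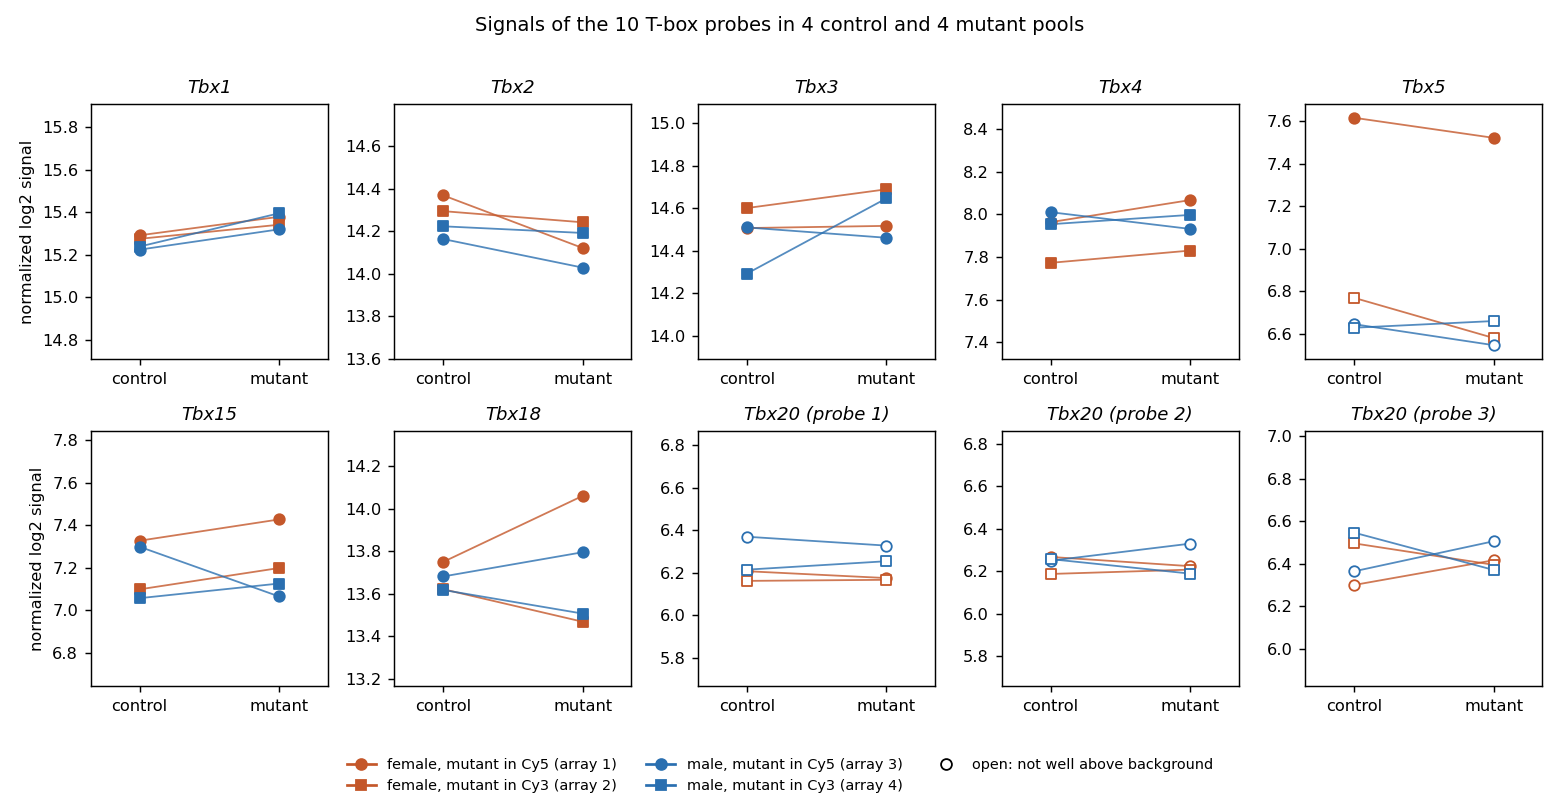
Normalized log2 signal (y axis, each panel with its own range of 1.2 or more) of the 10 T-box probes in the control and mutant pools, joined by a line for each array; colours give the sex of the pools, circles and squares the mutant dye, and open symbols are not well above background. The Tbx1 pools separated by genotype, the Tbx18 lines run up with the mutant in Cy5 and down with the mutant in Cy3, and both Tbx5 pools of array 1 lie above the others.

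Tbx5 was well above background in 1 of 4 mutant and 1 of 4 control pools, both on array 1, so it was not tested. Its log2 signal on array 1 was 7.52 in the mutant and 7.62 in the control pool. On the other arrays it lay between 6.55 and 6.77. On array 1 the 4 spots, none of them flagged, ranged from 50.1 to 371 intensity units in Cy3 and from 125 to 673 in Cy5. On array 2 the spots ranged from 122 to 132 in Cy5. The log2 ratios of mutant over control were −0.09, −0.19, −0.10 and 0.03.

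Tbx20 was read by 3 probes that cite 3 different transcripts. None was well above background in any of the 8 pools. Spot signals ranged from 25.8 to 54.0 intensity units in Cy3, beside a local background of 22 to 31, and from 73 to 142 in Cy5, beside 78 to 109. The mean log2 ratios of the 3 probes were −0.007, −0.003 and −0.005, which carry no order since both genotypes were at background. In the authors' deposited fold values, all 12 values of the 3 Tbx20 probes and 3 of 4 of the Tbx5 probe were exactly 1, a value that 29.7% of all entries held.

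**Figure D2:**
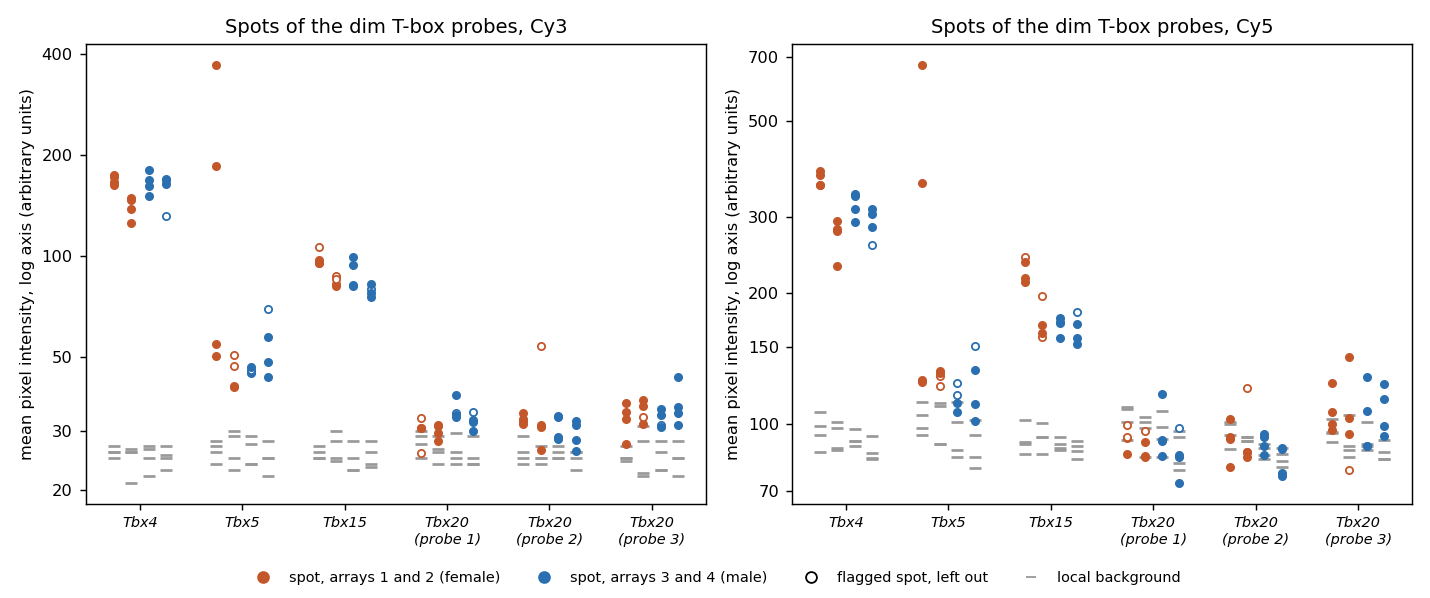
Mean pixel intensity of single spots (y axis, log scale, arbitrary units) of the Tbx4, Tbx5, Tbx15 and Tbx20 probes in Cy3 (left) and Cy5 (right), with the local background of each spot as a grey dash; the 4 columns of a probe are arrays 1 to 4 and open circles are flagged spots. Tbx4 and Tbx15 lie above background on every array, Tbx20 beside it, and the Tbx5 spots of array 1 spread from near the other arrays up to 371 in Cy3 and 673 in Cy5.

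Among the 6 tested probes, 0 passed at an adjusted p under 0.05 with limma, beside 3.99% of all tested probes, 1117 of 27963. With a fold of at least 1.5 as well, 0.372% of all probes passed, and none of the 6. At an unadjusted p under 0.05, 2 of the 6 passed, Tbx1 and Tbx2, beside 18.9% of all probes. Tbx1 and Tbx2 were also the only 2 of the 6 with 1 direction on all 4 arrays, which 17.7% of tested probes had. The median log2 ratio of the 6 was 0.04, and that of all tested probes 0.001. A p above the threshold does not show that a gene was unaffected. Over the 6, the 95% intervals reached down to −0.20 (Tbx2) and up to 0.21 (Tbx3) on the log2 scale.

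**Figure D3:**
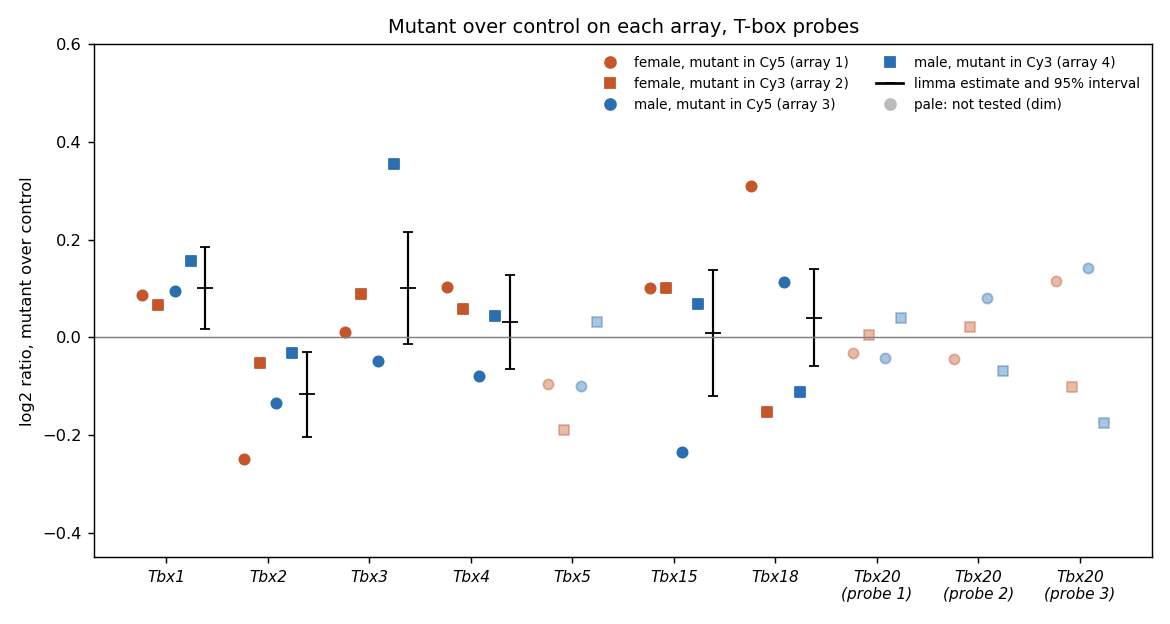
Log2 ratio of mutant over control (y axis) of the 10 T-box probes on arrays 1 to 4, from left to right within a gene, with the limma estimate and its 95% interval in black; pale points were too dim to test. Only Tbx1, above 0, and Tbx2, below 0, had 4 arrays on 1 side among the tested probes, and no tested estimate lay further from 0 than 0.12.

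The genotype effect was also compared between the sexes, since the pools had been sorted by sex. Tbx2 ratios averaged −0.15 on the female arrays and −0.08 on the male arrays. Tbx1 averaged 0.08 and 0.13, and Tbx3 0.05 and 0.15. Tbx4 averaged 0.08 in females and −0.02 in males, Tbx15 0.10 and −0.08, and Tbx18 0.08 and 0.00. The differences of male minus female effects lay between −0.18 (Tbx15) and 0.10 (Tbx3), with SEs of up to 0.10. None of the 6 passed the interaction test in limma, at an adjusted p of 1.00 for each and with 0 also at an unadjusted p under 0.05. Over all probes, 0% passed the interaction test after adjustment and 2.63% before it. With 2 arrays per sex, only large differences could be seen.

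Male and female pools were then compared directly in the separate channels, with the array as a block. The estimates of male minus female log2 signal lay between −0.13 for Tbx15 and 0.07 for Tbx4, with −0.10 for Tbx2 (SE 0.06, unadjusted p 0.136). None of the 6 passed, at an adjusted p of 1.00 for each and with 0 at an unadjusted p under 0.05. Of all tested probes, 0.0823% passed after adjustment and 3.31% before it.

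The rest of the family, 9 other T-box genes with 13 probes, showed no call either. Of these, 7 had a tested probe: T, the founding member of the family, Tbr1, Tbx6, Tbx10, Tbx21, Tbx22 and Mga. Tbx21, best known from T helper cells, was lower on 4 of 4 arrays, with log2 ratios of −0.09, −0.24, −0.03 and −0.16 and an adjusted p of 0.102, and it was the 1 gene of the 7 with an unadjusted p under 0.05. The other 6 lay between −0.04 (Mga) and 0.09 (Tbx22), and the second tested probe of Tbx6 at 0.08. Tbx22 and Tbr1 each had a further probe that was not well above background in any pool. In the mutant pools the tested Tbx22 probe had a mean log2 signal of 13.02 and the other Tbx22 probe 6.32. Eomes and Tbx19 were not above background. The median over the 7 genes was 0.01.

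Genes that Tbx2 or Tbx3 are known to repress in other organs formed the next list. Of its 12 genes, 10 were tested, and Cdkn1a, the cell cycle inhibitor p21, was the only one that passed: it rose by 0.25 on the log2 scale (SE 0.04, adjusted p 0.00940), higher on 4 of 4 arrays. A second, dim Cdkn1a probe gave 0.20 with an adjusted p of 0.188. None of the list passed as lower, though 5 of the 10 estimates were below 0. At an unadjusted p under 0.05 with limma, Cdkn2a was also lower and Cdh1 and Shisa3 higher. The median log2 ratio of the list was −0.005, beside 0.002 over all tested genes. Over all genes, by their brightest tested probe, 1.85% rose and 2.51% fell. Cofactors of Tbx2 and subunits of the NuRD complex, a repressor complex that remodels and deacetylates chromatin, were all tested, and 0 of 11 passed with limma, 1 of them, Hmgb2, at an unadjusted p under 0.05. Their median was −0.04 and their range −0.15 (Hmgb2) to 0.06 (Hdac1).

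Of 12 genes linked to Tbx1 in ear development, 10 were tested. Of these, 3 fell and 0 rose, beside 2.51% and 1.85% of all genes. Fgf3, 1 of the 3, reached the tests through its control pools alone. Fgf10, a growth factor of the otic epithelium, fell by 0.47 (SE 0.04, adjusted p 4.34e-04). Cyp26b1, an enzyme that degrades retinoic acid, fell by 0.40 (SE 0.04, adjusted p 0.00241). Fgf3, a growth factor of the early otic region, was well above background in 4 of 4 control and 0 of 4 mutant pools, at least 1.17-fold higher in controls. The bound compares the bright pools with the lowest signal that counted as above background, or with the dim probe's own signal where that was higher. The median over the list was 0.05, with 6 of 10 estimates above 0. Tbx1 itself, given above, did not pass, and its relation to these genes was not tested.

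**Figure D4:**
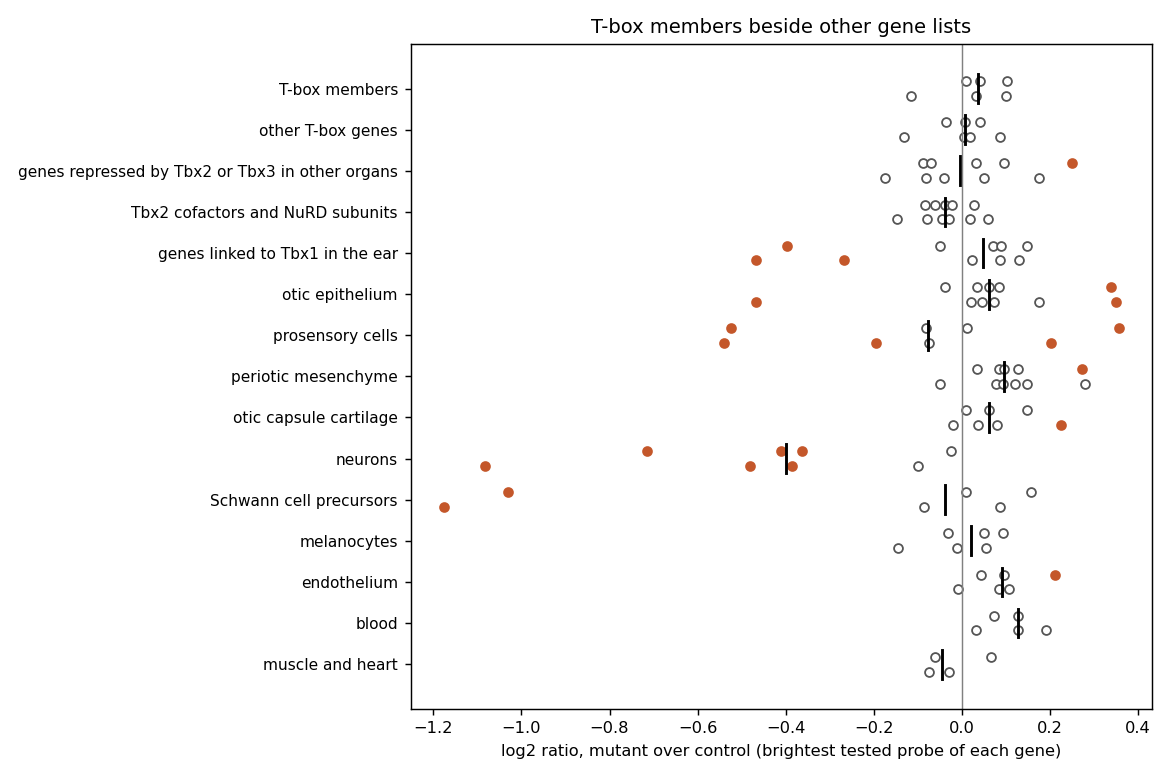
Log2 ratio of mutant over control (x axis) of the brightest tested probe of each gene, by list (rows), with filled points at an adjusted p under 0.05 and a black bar at the median of each list. The 6 T-box members lie between −0.12 and 0.10 with none filled, while filled points reach beyond −1 among neurons and Schwann cell precursors.

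The label of the tissue was checked with markers. Calls in the marker lists stand beside 1.85% of all genes that rose and 2.51% that fell. All 11 genes of otic epithelium and all 8 of prosensory cells were well above background in all 8 pools. In the otic epithelium list, Emx2 (0.35, adjusted p 0.00157) and Gata3 (0.34, adjusted p 0.0115) rose and Fgf10 fell, with a median of 0.06. In the prosensory list 2 rose and 3 fell, among them Lfng (−0.52, adjusted p 4.34e-04), Hey2 (0.36, adjusted p 0.00140) and Fgf20 (−0.54, adjusted p 0.00229). Lfng modulates Notch signalling, Hey2 is a Notch and FGF responsive repressor, and Fgf20 is a growth factor of prosensory cells. The estimate for Tbx2, −0.12, was smaller in size than any of these.

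Tbx1, Tbx15 and Tbx18 are also used by mesenchyme around the duct, whose markers were measured as well. All 11 periotic mesenchyme genes were well above background in all pools, 10 of 11 estimates were above 0 (median 0.09), and Col1a1, a collagen of connective tissue, rose (0.27, adjusted p 0.00588). The summed normalized signal of the list was 379999 to 398800 in the mutant pools and 337060 to 367604 in the control pools. The brightest genes weigh most in such a sum. Lum had a mean log2 signal of 16.88 in the mutant pools and Pou3f4 8.54. For otic epithelium the sums were 375348 to 417847 and 347401 to 380120, with 9 of 11 estimates above 0. The part of either tissue in the values of Tbx1, Tbx15 and Tbx18 was not tested. Cartilage of the otic capsule had 1 of 7 genes higher, Col9a1 (0.22, adjusted p 0.0159), and endothelium 1 of 6, Cldn5 (0.21, adjusted p 0.0216). Over all genes, 1.85% rose.

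The largest changes in the marker lists were in those of neurons and Schwann cell precursors. Over all genes, 1.85% rose and 2.51% fell. Of 8 tested neuron genes, 6 fell and 0 rose (median −0.40), led by Elavl3 (−1.08), Nefl (−0.48) and Nefm (−0.72), at adjusted p of 1.48e-04, 4.34e-04 and 5.53e-04. The summed signal was 20533 to 25538 in mutant and 23749 to 30158 in control pools. Snap25, the brightest neuron gene, weighs most in this sum, with a mean log2 signal of 13.87 in the mutant pools. It did not pass with limma (−0.03, adjusted p 0.765). Of 6 Schwann cell precursor genes, Foxd3 (−1.17, adjusted p 1.03e-04) and Fabp7 (−1.03, adjusted p 7.89e-05) fell. Fabp7 is not a marker of nerve tissue alone. The paper counts it among lowered genes with known expression in the organ of Corti, on its inner side. Which cells the fall of Fabp7 came from was not tested. The spiral ganglion had been removed in dissection. Melanocyte (6 tested), blood (5) and muscle and heart (4) genes had no call. Of the muscle and heart list, Myod1, Acta1, Myl7 and Nkx2-5 were well above background in too few measurements to be tested. Tbx20 was well above it in no pool. The part of these cells in the T-box values was not tested.

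The pattern of Tbx2 over the 8 pools was compared with that of every other tested gene, after each dye's mean had been removed. The 3 genes most like it were Cdca5 (Pearson's r 0.99), Hist1h3a (0.98) and BC049730 (0.97). Cdca5 holds sister chromatids together and Hist1h3a encodes a histone. Their log2 ratios of mutant over control were −0.14, −0.20 and −0.13, and none passed. These correlations describe 8 pools on 4 arrays and are the highest of 21042 genes. Tbx1 had an r of −0.31 with Tbx2, Tbx3 −0.02, Tbx4 −0.47, Tbx15 −0.01 and Tbx18 −0.25.

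Within 1 Mb of a T-box probe, 130 other genes were tested, of which 5 rose and 3 fell, beside 1.85% and 2.51% of all genes. Those with the smallest adjusted p were Snap91 (−0.87, adjusted p 6.97e-05), which serves in synaptic vesicle recycling, Prss35 (−1.18, adjusted p 8.65e-05), a gene of the serine protease family, and a probe with no gene name (0.31, adjusted p 0.00857). Snap91 and Prss35 lie at −939.4 kb and −949.4 kb from the Tbx18 probe, close to the edge of the window. The unnamed probe lies at −697.9 kb from the Tbx3 probe and −897.5 kb from the Tbx5 probe. Negative distances run towards lower coordinates. A link between these genes and the T-box genes was not tested. Around Tbx2, 1 of 27 genes rose and 0 fell, and around Tbx1 1 of 46 rose, Cldn5.

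**Figure D5:**
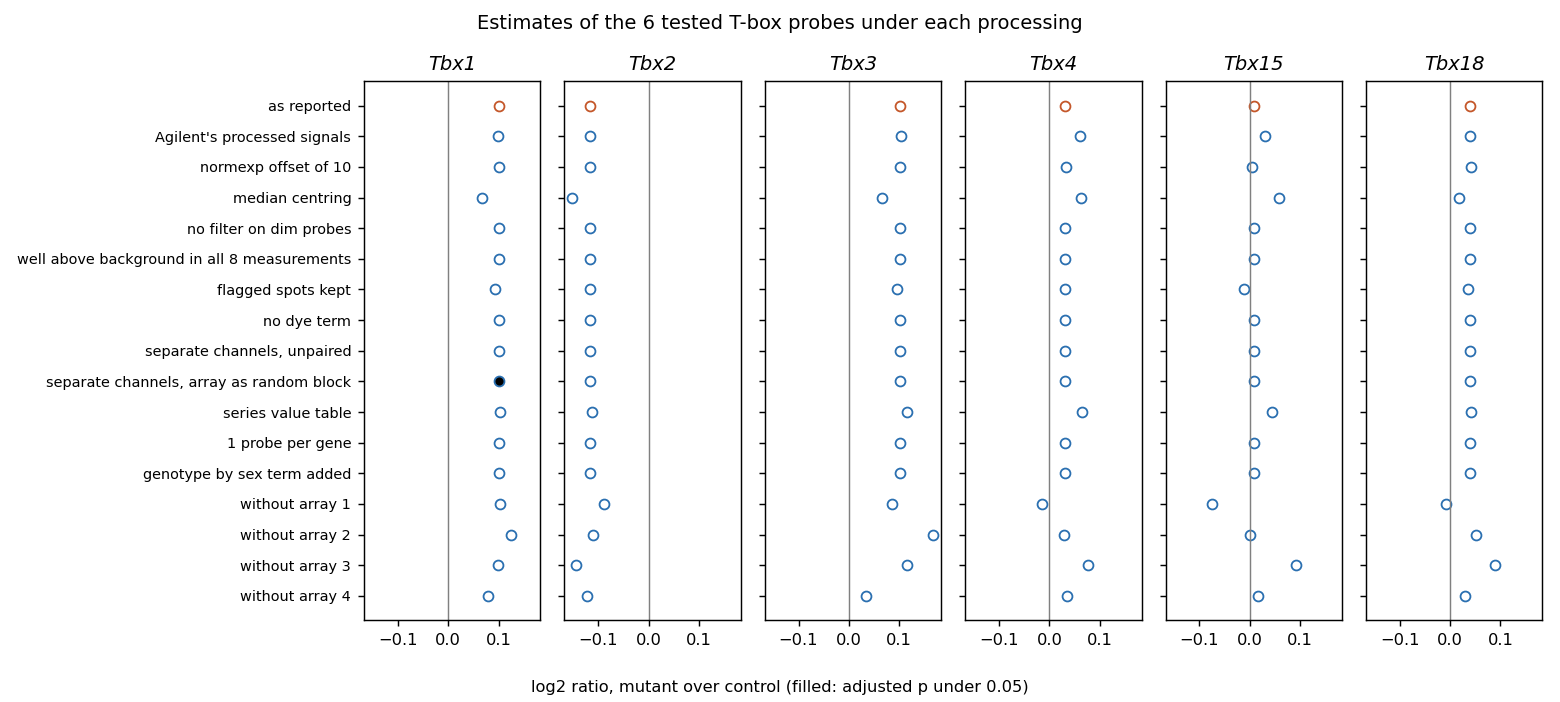
Log2 ratio of mutant over control (x axis) of the 6 tested T-box probes under each processing (rows), as reported in orange; a filled point has an adjusted p under 0.05. Tbx1 stayed above 0 and Tbx2 below 0 in all rows, while Tbx4, Tbx15 and Tbx18 crossed 0 without array 1, and Tbx15 also with flagged spots kept.

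The estimates were recomputed with 16 other settings. Tbx1 stayed between 0.07 and 0.12, Tbx2 between −0.15 and −0.09, and Tbx3 between 0.03 and 0.17, each with 1 sign throughout. Tbx4, Tbx15 and Tbx18 had no settled direction: without array 1 their estimates were −0.01, −0.07 and −0.01. Over these settings the adjusted p of Tbx2 ranged from 0.0597 to 0.739.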

How the data were processed

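RNA of 4 mutant and 4 control pools was hybridised in pairs to 4 arrays, which were on 1 slide and scanned together, so slide and scan are no batch between them. Per the file headers, the deposited intensity values were extracted with Agilent Feature Extraction 10.7.3.1 against the mm9 build. The authors also deposited a score for each probe and array, the signed fold change of mutant over control, with ratios below 1 written as negative. Its normalization is not given in the sources used here, and its column medians were 1. It was used as an alternative.

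Here, mean signals were corrected with normexp (offset 50) and normalized by loess within arrays in limma 3.58.1 (R 4.3.3). Unflagged spots of a probe were averaged, and a probe counted as well above background where at least 50% of its unflagged spots were. The direction of each ratio was taken from the dye labels. Log2 ratios were fitted with lmFit and eBayes with a genotype and a dye term, and p-values were adjusted by Benjamini-Hochberg over all 27963 tested probes. The genotype by sex interaction was added as a term. Levels in single pools and the male against female fit used separate channels after Aquantile, with the intraspot correlation. The study's own test, SAM, was not rerun, and an unpaired fit of the channels stands in for it. The fits were tested on simulated data.

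The genes and lists were chosen with earlier results of these data known. Named were all member probes, the other tested T-box genes, up to 3 genes with the smallest adjusted p under 0.05 in each other list, the label checks, the 3 neighbours within 1 Mb with the smallest adjusted p, and the 3 genes most like Tbx2. Further genes are named where they set the range or a limit of a list. Precision is limited by there being 4 arrays. The sequence and position of 1 probe are not reported here.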

Additional observations from a re-analysis of the deposited data

Results flagged for a closer look

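In groups of 4 samples, a sample was singled out where its gap to the nearest other, divided by the range of the group, exceeded Dixon's critical value at the 95% level. Chance alone marks about 1 in 20 groups, and 30 groups were examined, 3 for each of the 10 T-box probes. Of these, 3 were marked. The Tbx5 signal of array 1 was 7.52 in the mutant pool, with the other mutant pools between 6.55 and 6.66 (gap over range 0.884). It was 7.62 in the control pool of the same array, with the other control pools between 6.63 and 6.77 (0.858). The Tbx15 log2 ratio of mutant over control was −0.234 on array 3, with the others between 0.07 and 0.10 (0.906).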

How the results depend on the processing

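The count of T-box probes past an adjusted p of 0.05 was 0 in the reported fit for genotype, for the genotype by sex interaction and for male over female. For genotype it became 1, Tbx1, with separate channels and the array as a random block, where 7.98% of all probes passed instead of 3.99%. In the other genotype alternatives run, and in all alternatives run for the other 2 comparisons, it was 0. Leaving out each array in turn gave 0 to 0 in all 3 comparisons. The sex fit without an array used the intraspot correlation of all 4 arrays, since 3 did not give one. Signs turned for Tbx15 with flagged spots kept (−0.0106) and, without array 1, for Tbx4 (−0.0140), Tbx15 (−0.0746) and Tbx18 (−0.00902). The causes were not tested. Over the fits without 1 array, these were the lowest values of each gene, and the highest were 0.0773, 0.0923 and 0.0893, all without array 3. The reported fit already pairs the mutant and control pool of each array. The share of all probes called ranged from 0.908% (channels fitted unpaired) to 7.98%. With the series value table it was 1.54%. Dim probes are limited by signal over background: Tbx5 and Tbx20 could not be tested.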
